A study of Sus scrofa with 20 samples.

Results

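The genes described here are the ACTH receptor MC2R, its accessory protein MRAP and the steroidogenic transcription factors NR5A1, NR0B1, GATA4 and GATA6. They were taken by gene symbol from the annotation of the Affymetrix Porcine Snowball array. Of these 6 genes, 5 were measured, out of 13588 gene symbols with a transcript probe set. MC2R itself has no probe set under its symbol in that annotation, so its level was not analysed here. A further 19850 transcript probe sets have no symbol and were not searched for it. The tissue was the adrenal gland of 20 German Landrace pigs whose labels call them adult, with 1 array of total RNA per animal. According to the labels, 10 animals had the high-reactive coping pattern (HR) and 10 the low-reactive pattern (LR). Per the methods, the pigs were selected as extremes of struggling behaviour in piglet restraint tests that also differed in haplotype at a locus associated with this behaviour, so that behaviour and haplotype cannot be told apart. No treatment is named, and sex, litter and array batch are not given in the sources used here. Animals are named by group and animal number, as in HR2835.

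ACTH from the pituitary binds MC2R on cells of the adrenal cortex. The receptor reaches the cell surface only together with MRAP, and it signals through the stimulatory G protein, cyclic AMP and protein kinase A. NR5A1, also known as steroidogenic factor, is the nuclear receptor that binds the promoters of most genes of steroid synthesis. NR0B1, also known as DAX, is a nuclear receptor without a DNA-binding domain of the usual kind that represses NR5A1 in human and mouse cells. GATA4 and GATA6 are zinc finger factors that act with NR5A1 on steroidogenic promoters. In the mouse, GATA4 is mainly a factor of the fetal adrenal and the gonads, and GATA6 persists in the adult cortex. STAR carries cholesterol into the mitochondrion and CYP17A1 is the 17-hydroxylase on the way to cortisol, and both are classical targets of ACTH and NR5A1.

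On the Sscrofa11.1 assembly, RefSeq places MRAP on chromosome 13 (195950949 to 195973501), NR5A1 on chromosome 1 (265284491 to 265311547) and NR0B1 on chromosome X (26117874 to 26122951). GATA4 lies on chromosome 14 (14858470 to 14938156) and GATA6 on chromosome 6 (107282709 to 107314725), the chromosome that also carries MC2R (96241744 to 96268870). CYP17A1 lies on chromosome 14 (113805616 to 113820445) and STAR on chromosome 15 (48377597 to 48385398).

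Values are RMA log2 values, and a gene is shown by its probe set with the highest mean over all 20 arrays. Values ranged from 0.37 to 14.34 over 47722 probe sets, and array medians lay between 4.74 and 4.81. All 8 measured markers of the cortex and all 12 of the chromaffin cells of the medulla had a mean above the median level of 4.78. That level lies within the range of the array's background control probe sets, whose means ran from 1.31 to 8.14. The brightest markers of the cortex, CYP17A1 (13.6) and CYP21A2 (13.5), and of the medulla, CHGB (12.2) and CHGA (11.2), were above that range. Both parts of the gland were therefore sampled. The array of HR2835 stood apart. Its mean correlation with the other arrays was 0.938, against 0.977 to 0.983 for the other 19. It had the lowest mean standardized level of all 20 animals for the lists of cortex (-2.15), capsule and fibroblast (-2.18), zona glomerulosa (-1.29), endothelial cells (-1.83), smooth muscle (-1.91), adipocytes (-1.44) and Schwann cells (-2.95), and ranked 5 from the lowest for chromaffin cells (-0.45). The main comparisons and relations below are given with and without HR2835, and values given once for HR or for all animals include it. The part that cell composition or RNA quality had in the values of HR2835 was not tested. In whole tissue, fewer cells of a type and less RNA per cell cannot be told apart.

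MRAP, the accessory protein of the receptor, was among the brightest probe sets of the array, with a mean at or above that of 99.6% of all probe sets. In HR it had its lowest value of 10.77 in HR2835, a median of 11.60 and its highest value of 12.12 in HR2857. In LR it ranged from 11.28 to 11.95 around a median of 11.60. The groups overlapped, apart from HR2835 below and HR2857 above all LR animals. HR animals averaged 11.54 ± 0.35 (SD, n = 10), and LR animals averaged 11.60 ± 0.19 (SD, n = 10).

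NR5A1 was similarly placed on the array, at or above 99.5% of the probe set means. Its HR values had a lowest value of 10.88 in HR2835, a median of 11.44 and a highest value of 11.69 in HR2894. The LR values ran from 11.24 over a median of 11.47 to 11.62. Apart from HR2835, this factor varied little between animals. Its SD was 0.217 in HR, 0.114 in HR without HR2835 (n = 9) and 0.127 in LR, where only 6.72% of all probe sets had a lower SD. The median SD over all probe sets was 0.269 in HR and 0.233 in LR. A second probe set of NR5A1 (mean 10.27) also had its lowest value, 9.35, in HR2835, and its correlation with the brighter one over the animals was 0.937, or 0.855 without HR2835.

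NR0B1, the repressor, had a mean at or above 72.1% of the probe set means, but within the range of the array's background controls. Of the 69 background control probe sets, whose means ran from 1.31 to 8.14, 21 were at or above the mean of NR0B1 (6.20), against 0 for MRAP, NR5A1 and GATA6. A level of NR0B1 above background could therefore not be established from these values, and this limit holds for each of its results below. The range of the controls is wide, so that the limit is not particular to NR0B1. A dimmer probe set of STAR, with a mean of 8.045, lay inside it and at or above 91.6% of the probe set means. It ranged in HR from 6.004 over a median of 6.20 to 6.78 in HR2857, and in LR from 5.72 over a median of 6.11 to 6.42. Here 3 HR animals (HR2857, HR2915 and HR2965) lay above every LR animal, 3 LR animals lay below every HR animal, and the rest overlapped. HR2835 ranked 5 from the lowest of the 20 animals, within the range of both groups.

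GATA4 and GATA6, the paired zinc finger factors, stood at different places of the array's range, although values of different probe sets do not compare the genes' abundance. GATA6 was at or above 97.5% of the probe set means. Its HR values had a lowest value of 8.66 in HR2835, a median of 9.55 and a highest value of 10.02 in HR2857, and its LR values lay between 9.30 and 9.86 around a median of 9.44. GATA4 had 3 probe sets, all with means below the median of all probe sets (4.48, 3.66 and 2.97). The brightest ranged in HR from 4.37 over 4.48 to 4.90 in HR2965, and in LR from 4.05 over 4.43 to 4.97. Of the 69 background control probe sets, 30 were at or above the mean of the brightest, so that a level of GATA4 above background could not be established either. Its dimmer probe sets correlated with the brightest at only 0.361 and 0.27.

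**Figure D1:**
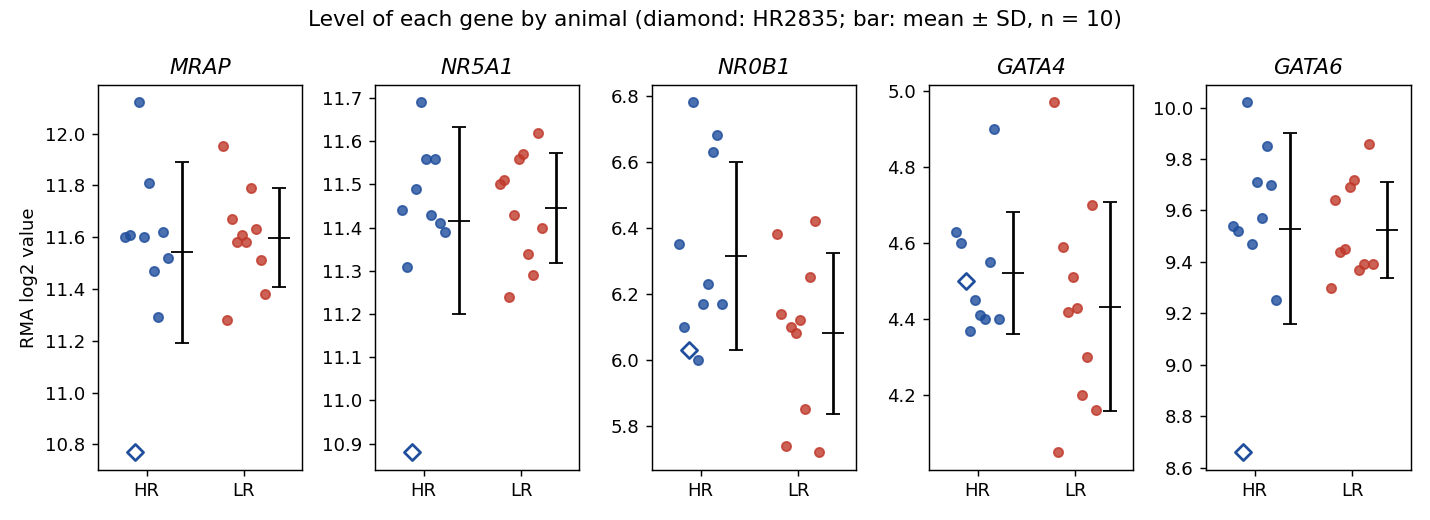
RMA log2 value (vertical axis, a separate scale for each gene) of the 5 measured genes in each HR and LR animal, with the mean and SD of 10 animals beside the points. The open diamond is HR2835, which is the lowest of all 20 animals for MRAP (10.77), NR5A1 (10.88) and GATA6 (8.66) but not for NR0B1 or GATA4.

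The first comparison asked whether the ACTH receptor apparatus and its transcription factors differed between HR and LR. None of the 5 measured genes passed an adjusted p of 0.05 in limma, where 0 of 47722 probe sets (0%) were called and 1741 (3.65%) had an unadjusted p under 0.05. Among the 5 genes, 0 had an unadjusted p under 0.05. The largest difference was that of NR0B1, which was 0.23 log2 units higher in HR (SE 0.12, 95% interval -0.01 to 0.48, limma unadjusted p = 0.0581, adjusted p = 1), with 7 of 10 HR animals above the LR median. Without HR2835 this difference was 0.26 (interval 0.02 to 0.51, limma unadjusted p = 0.0335, adjusted p = 0.623), in a fit where 0 probe sets (0%) were called and 3765 of 47722 (7.89%) had an unadjusted p under 0.05. It lay between 0.18 and 0.27 when each animal was left out in turn, and was 0.36 with the score of the capsule and fibroblast markers as a covariate (limma unadjusted p = 0.0053, adjusted p = 0.731). In that fit 0 probe sets were called and 3240 of 47722 had an unadjusted p under 0.05. HR2835 had the lowest of these scores (-2.18).

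For the other genes the differences were close to 0 and their intervals spanned both directions. MRAP differed by -0.06 (95% interval -0.31 to 0.20), NR5A1 by -0.03 (-0.21 to 0.15), GATA4 by 0.09 (-0.12 to 0.30) and GATA6 by 0.0027 (-0.26 to 0.27). Without HR2835 the estimates for MRAP (0.03) and NR5A1 (0.03) changed sign and that of GATA6 became 0.10, and all 5 genes then had a higher mean in HR than in LR with 0 adjusted p under 0.05. The median difference over all probe sets in that fit was 0.01, and the share of probe sets higher in HR was not determined. The targets showed narrower intervals. CYP17A1 averaged 13.54 ± 0.10 (SD, n = 10) for HR and 13.57 ± 0.07 for LR and differed by -0.02 (-0.14 to 0.10), and STAR averaged 13.40 ± 0.12 and 13.44 ± 0.14 and differed by -0.04 (-0.18 to 0.11).

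**Figure D2:**
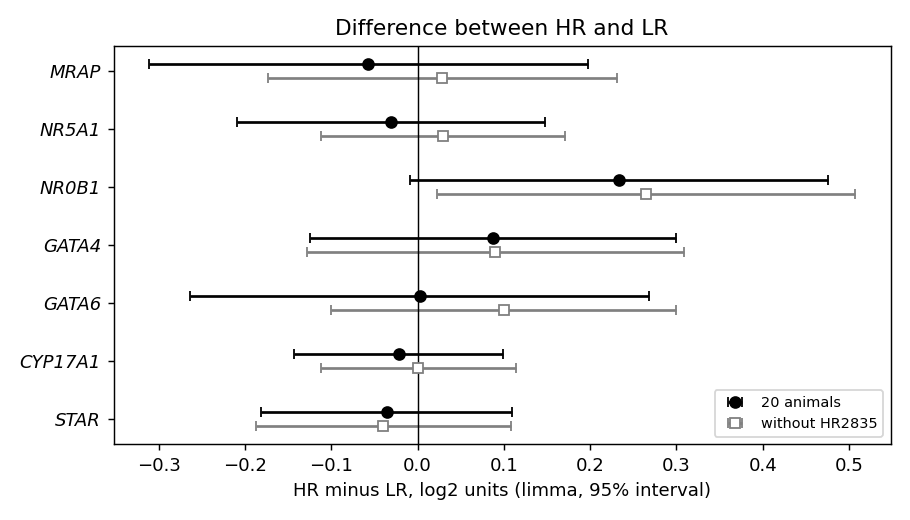
Difference between HR and LR in log2 units (horizontal axis) for the 5 genes, CYP17A1 and STAR, with the 95% interval from limma, for all 20 animals (filled circles) and without HR2835 (open squares). The interval of NR0B1 runs from -0.01 to 0.48 with all animals and from 0.02 to 0.51 without HR2835, and the other intervals include 0 in both fits.

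The next question was how the genes followed CYP17A1 and STAR from animal to animal. Group means were subtracted from the values, Pearson's r was tested by permutation within the groups, and p-values were adjusted over 60 relations, namely 20 gene pairs over all animals, in HR and in LR. Over all animals, 2 of the 10 relations to the targets passed, 1 with each target. CYP17A1 and STAR lay at the top of the array's range, at or above 99.9% of the probe set means, and CYP17A1 varied less than almost any probe set (SD 0.10 in HR and 0.07 in LR). Whether their probes were near saturation was not tested.

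NR5A1 rose with CYP17A1 over the 20 animals (r = 0.721, permutation p = 0.00186, adjusted p = 0.0372, rho = 0.603 with adjusted p = 0.0835). The coefficient was 0.741 in HR and 0.685 in LR, where neither passed (permutation adjusted p = 0.12 in both). Without HR2835, the lowest animal for both genes, r was 0.496 (permutation p = 0.0363, adjusted p = 0.239), and in the remaining 9 HR animals it was 0.247. Leaving out the 2 animals farthest from the median of NR5A1, HR2835 and HR2894, gave r = 0.446. The second probe set of NR5A1 gave 0.767 over all animals and 0.583 without HR2835. Over all 20 left-out animals the call was lost in 10 cases (r from 0.496 to 0.815), HR2835 among them, while the LR value does not involve that animal.

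NR0B1 ran opposite to STAR (r = -0.633, permutation p = 0.00319, adjusted p = 0.0478, rho = -0.605 with adjusted p = 0.0835), at NR0B1 values inside the range of the background controls. Leaving out HR2835 hardly changed the size, with r = -0.637 in the other 19 animals (permutation p = 0.0048), but the adjusted p over the 60 relations became 0.146. The call was also lost when most other single animals were left out, in 15 of 20 cases, with permutation adjusted p from 0.0427 to 0.146 and r from -0.678 to -0.575. It held only without HR2978, LR2562, LR2594, LR2611 or LR2639. The coefficient was -0.72 in HR and -0.566 in LR. The 3 HR animals with the highest NR0B1 were HR2857, HR2965 and HR2915, and their STAR values of 13.32, 13.20 and 13.33 were below the HR median of 13.41. The LR animal with the lowest NR0B1, LR2793, had the highest STAR value of all, 13.65. Other animals went against this order. HR2978 (NR0B1 6.17, STAR 13.30) and LR2611 (NR0B1 6.08, STAR 13.28) were below the median of their group for both genes. Leaving out HR2857 and HR2965, the animals farthest from the median of NR0B1, gave r = -0.551. In LR alone, without LR2579 and LR2793, r was -0.177, so that the LR relation rested on these 2 animals. With the other target, CYP17A1, NR0B1 had a positive r of 0.223 (permutation adjusted p = 0.58), or 0.0757 without HR2835. With NR5A1 it had 0.381 (permutation adjusted p = 0.271), or 0.282 without HR2835.

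STAR has 8 probe sets on the array, and the relation to NR0B1 was negative with each of them, though not equally strong. From the brightest to the dimmest probe set, r over 20 animals was -0.633, -0.115, -0.517, -0.592, -0.556, -0.286, -0.483 and -0.135, and only the first passed. Without HR2835 the second value was -0.323. These probe sets measure 1 gene in the same animals, so that they are no independent support for each other. GATA4 was likewise negative with all 8, from -0.572 to -0.0189, in a probe set near the array's background.

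**Figure D3:**
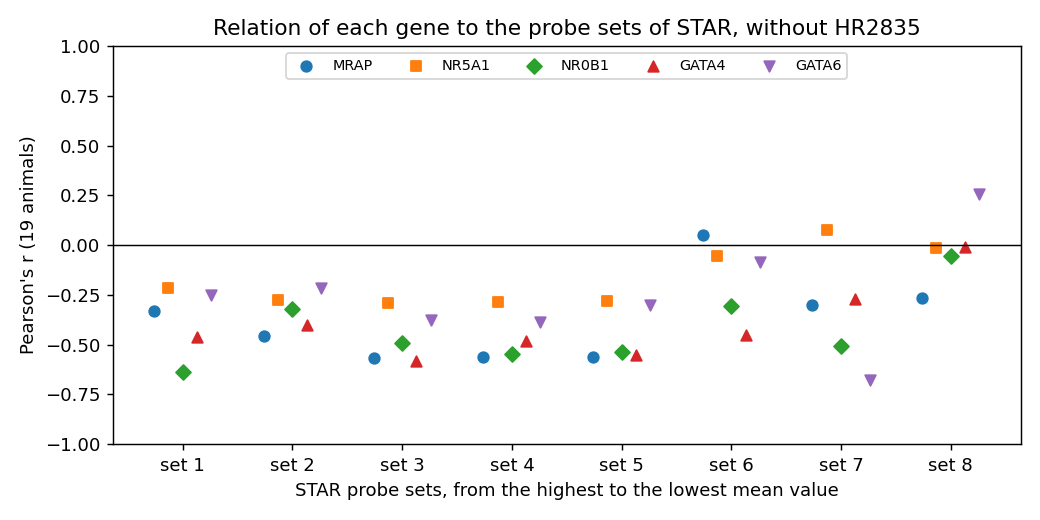
Pearson's r (vertical axis, 19 animals without HR2835, group means subtracted) of each of the 5 genes with the 8 probe sets of STAR, ordered along the horizontal axis from the brightest to the dimmest. All values for NR0B1 (diamonds) and GATA4 (upward triangles) lie below 0, while MRAP, NR5A1 and GATA6 are on both sides.

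MRAP followed CYP17A1 closely among the HR animals. Their r was 0.935 (permutation p = 0.00027, adjusted p = 0.0162), with rho = 0.745 (adjusted p = 0.173). The share of all probe sets with so large an r to CYP17A1 in HR was not determined. In LR r was -0.224, and over all animals it was 0.603 (permutation adjusted p = 0.1), or 0.314 without HR2835. An absolute r with CYP17A1 as large as these was found for 12.9% of the transcript probe sets over all animals, or 29.0% without HR2835. HR2857 was the highest HR animal for both genes and HR2835 the lowest for both. Without HR2835 the HR value was 0.84 (exact permutation p = 0.00547, n = 9, adjusted p = 0.146), and without both of them 0.727. The difference of r between HR and LR, 1.16, had a permutation p of 0.0263, which became 0.263 after adjustment over the 10 relations to CYP17A1 and STAR. Without HR2835 that difference was 1.06 (permutation adjusted p = 0.47). No other of the 10 relations had a permutation p under 0.05 for the difference between HR and LR.

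GATA6 and CYP17A1 had r = 0.606 over all animals (permutation adjusted p = 0.1), which became 0.287 without HR2835. GATA4 showed 0.00 with CYP17A1 and -0.463 with STAR (permutation adjusted p = 0.187), and the latter was -0.0509 without HR2965 and LR2016. With STAR, MRAP had -0.292, NR5A1 -0.199 and GATA6 -0.229, none of which passed. Without HR2835 these were -0.329, -0.213 and -0.253. All 5 genes therefore had a negative coefficient with the brightest probe set of STAR. The share of all probe sets with a negative coefficient was not determined.

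Many other probe sets showed relations of this size. At |r| of at least 0.456, 3 of the 5 genes (MRAP, NR5A1 and GATA6) reached this size with CYP17A1, as did 30.7% of all transcript probe sets over the 20 animals. Without HR2835, at |r| of at least 0.468, 1 of 5 (NR5A1) remained, against 9.28% of the probe sets. For STAR 2 of 5 (NR0B1 and GATA4) reached the limit, against 13.4%, and without HR2835 1 of 5 (NR0B1), against 16.9%. An absolute r with STAR as large as that of NR0B1 was found for 2.13% of the transcript probe sets, or 4.02% without HR2835. For NR5A1 and CYP17A1 these shares were 2.69% and 7.14%.

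**Figure D4:**
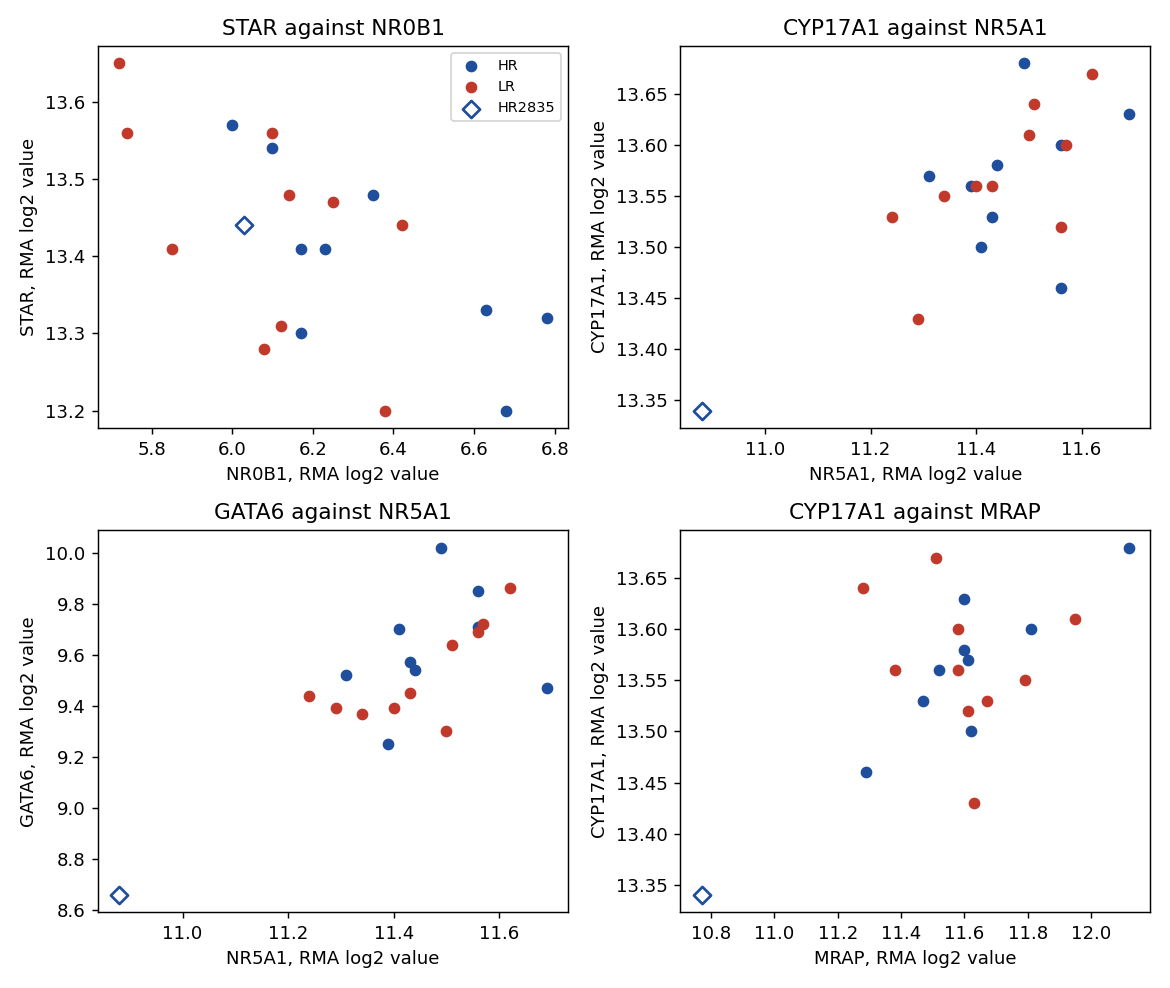
RMA log2 values of 4 pairs of genes, with 1 point per animal (HR blue, LR red, HR2835 as an open diamond). STAR falls as NR0B1 rises (r = -0.633) with HR2835 inside the cloud, whereas HR2835 lies at the low corner of the other panels (NR5A1 with CYP17A1, r = 0.721; NR5A1 with GATA6, r = 0.772; MRAP with CYP17A1, r = 0.603).

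Among the 5 genes themselves, all 10 pairs had a positive coefficient over the 20 animals, and 1 passed. The share of positive pairs among other genes was not determined. NR5A1 rose with GATA6 (r = 0.772, permutation p = 0.00163, adjusted p = 0.0372, rho = 0.722 with adjusted p = 0.033). Their coefficient was 0.782 in HR and 0.745 in LR. Without HR2835 it was 0.492 over 19 animals (permutation adjusted p = 0.239) and 0.238 in the remaining 9 HR animals, and without HR2835 and HR2894 it was 0.669. The sign was kept in each of these sets. The call was lost in 10 of 20 cases when single animals were left out (r from 0.492 to 0.859). An absolute r with GATA6 as large as that of NR5A1 was found for 1.75% of the transcript probe sets, or 5.51% without HR2835.

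NR0B1 and GATA6 also went together, with r = 0.591 (permutation p = 0.00698, adjusted p = 0.0838), and 0.601 without HR2835. Their coefficient was 0.711 in HR, or 0.786 without HR2835, and 0.375 in LR. An absolute r with GATA6 as large as that of NR0B1 was found for 15.9% of the transcript probe sets, or 1.4% without HR2835. Among these 10 pairs, those of MRAP with NR5A1 and GATA6 changed most with HR2835. MRAP and NR5A1 had 0.48 with it and -0.08 without it, and MRAP and GATA6 had 0.528 with it and 0.0454 without it. In LR, MRAP had -0.199 with NR5A1 and -0.486 with GATA6, neither of which passed. GATA4 and GATA6 had r = 0.0392 (permutation adjusted p = 0.891). Of all 60 relations, 4 passed by r and 1 by rho, and 0 passed by either without HR2835, where 10 had an unadjusted permutation p under 0.05 by r.

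**Figure D5:**
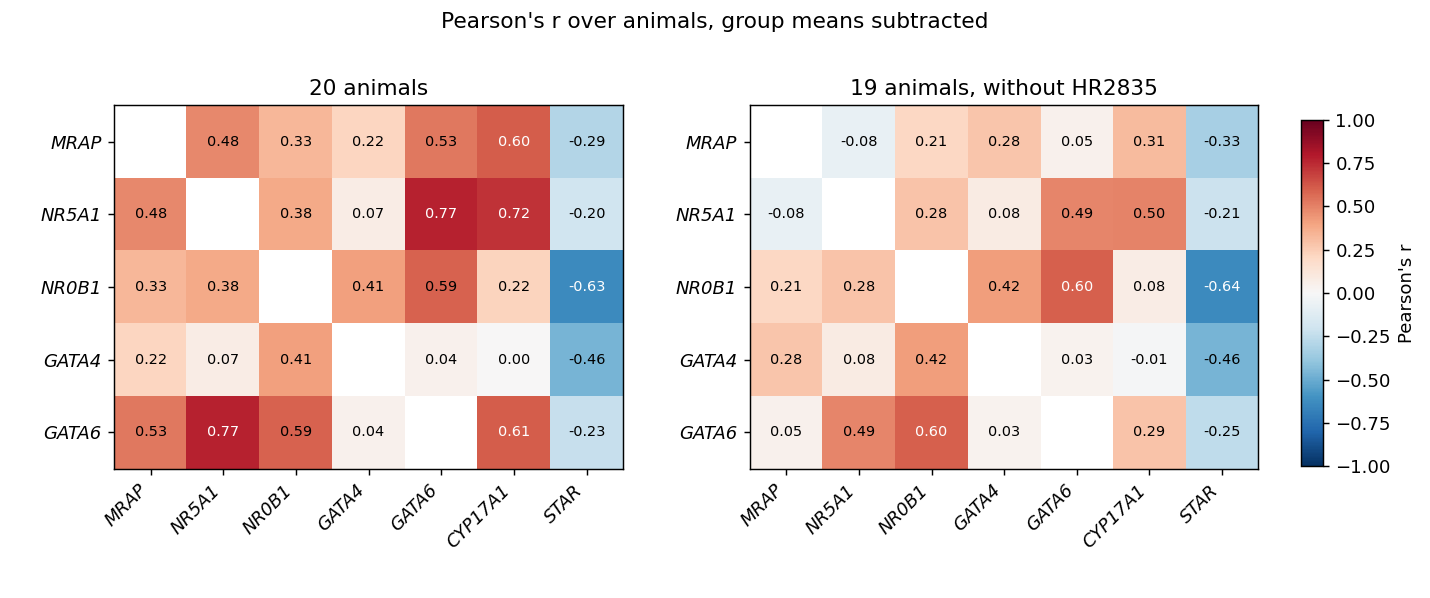
Pearson's r over animals with group means subtracted, for each pair of the 5 genes and for each gene with CYP17A1 and STAR, over 20 animals (left) and without HR2835 (right). Without HR2835 the coefficient of NR0B1 with STAR stays at -0.64 and with GATA6 at 0.60, while that of NR5A1 with CYP17A1 goes from 0.72 to 0.50 and that of MRAP with NR5A1 from 0.48 to -0.08.

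Some lists of cell type markers moved with these genes. The mean standardized level of the cortex list, which includes CYP17A1 and STAR, had r = 0.71 with NR5A1, 0.663 with GATA6 and 0.591 with MRAP, and without HR2835 these were 0.262, 0.169 and 0.0761. These relations were not particular to the cortex list. The endothelial list had 0.707 with NR5A1, 0.695 with GATA6 and 0.591 with MRAP, or 0.272, 0.269 and 0.0989 without HR2835. The capsule and fibroblast list had 0.605 with NR5A1 and 0.556 with GATA6, or 0.0463 and -0.0387 without HR2835. For NR0B1 and the capsule and fibroblast list r was 0.525, and 0.523 without HR2835. That list ranged from -2.18 over -0.10 to 0.38 in HR and from -0.53 over 0.28 to 1.20 in LR, and 10 of its 11 genes were above the median level. Between STAR and the same list r was -0.276, and after removing the list's score the coefficient of NR0B1 and STAR was -0.596 (permutation adjusted p = 0.071). MRAP had 0.776 with the smooth muscle list, and 0.548 without HR2835. Other coefficients were larger without HR2835. NR0B1 had -0.0338 with the Schwann cell list and -0.465 without that animal, 0.0698 and -0.264 with the cortex list, and -0.355 and -0.427 with the chromaffin list. GATA4 had 0.359 with the smooth muscle list, and 0.505 without HR2835. The part of cell composition in the results was not tested. All these coefficients are descriptions over animals of the same 20 arrays.

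Genes whose levels were most alike over the 20 animals were sought among 10175 named genes above the median level (10176 for GATA4), by Spearman's rho with group means subtracted. They were chosen for these values, which are a description without a test. The median level lies within the range of the background controls (1.31 to 8.14). Many genes named below also had means in that range, among them FZD8 (5.6), TRANK1 (6.69), SOX5 (5.11), RECQL (5.53), INHBA (5.17) and ADAMTS15 (5.17). For NR0B1 the most alike genes were the ubiquitin ligase RNF144A (rho = 0.871), ENC1 (0.817), the Wnt receptor FZD8 (0.815), UBTF (0.788) and TRANK1 (0.786), and at the opposite end EIF1B (-0.824) and GNPNAT1 (-0.794). The r of RNF144A and NR0B1 was 0.838, and 0.836 without HR2835. In that order STAR ranked 70 from the lowest end and GATA6 ranked 89 from the highest.

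For GATA6 the leading genes were the ephrin ligand EFNB1 (0.901), CHMP4C (0.886), the homeobox factor HHEX (0.877), SUPT4H1 (0.851) and PHF12 (0.845). At the opposite end stood the activin subunit INHBA (-0.792) and the nuclear receptor listed as NOR-1 (-0.838). The r of EFNB1 and GATA6 was 0.936, and 0.856 without HR2835. NR5A1 ranked 48 from the highest in this order and NR0B1 ranked 227.

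For NR5A1 they were OGFOD2 (0.856), ZNF687 (0.848), PLEKHA4 (0.841), DERL3 (0.838) and GTPBP1 (0.827), with SOX5 (-0.865) and ARMCX3 (-0.833) lowest. The r of OGFOD2 and NR5A1 was 0.906, and 0.77 without HR2835. GATA6 ranked 103 and CYP17A1 ranked 567 in the order of NR5A1. For MRAP they were CC2D1B (0.829), HAUS5 (0.826), BLOC1S1 (0.814), the inhibitory SMAD family member SMAD6 (0.812) and ABCA2 (0.795), with RECQL (-0.806) and DONSON (-0.803) lowest. The r of CC2D1B and MRAP was 0.769, and 0.713 without HR2835. CYP17A1 ranked 3336 in the order of MRAP, which differs from its r of 0.603 because rho was 0.289. For GATA4 the values were lower, led by LFNG (0.735), ADAMTS15 (0.713), TP53BP2 (0.707), GLB1 (0.689) and S100A16 (0.687), with CAB39L (-0.783) and SIRT1 (-0.725) lowest. The r of LFNG and GATA4 was 0.617, and 0.741 without HR2835.

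The neighbours of these genes in ACTH signalling were compared between HR and LR in the same fit. Of 28 listed genes, from the accessory proteins to adenylyl cyclases, kinase subunits, phosphodiesterases and CREB family factors, 24 were measured and 0 were called in either direction. Their median difference was -0.05, beside 0.00 over all probe sets and -0.013 over those above the median level. Of the 24, 7 had a higher mean in HR, and the share over all probe sets was not determined. Without HR2835 the median was -0.02, beside 0.01 over all probe sets, and 11 of 24 were higher in HR. The smallest p belonged to CREM, the cyclic AMP-responsive modulator, with HR animals at 6.89 ± 1.32 and LR animals at 7.70 ± 0.72 (SD, n = 10 each). The difference was -0.81 (SE 0.43, limma unadjusted p = 0.0736, adjusted p = 1), and -1.004 without HR2835 (limma unadjusted p = 0.0237, adjusted p = 0.612). With the capsule and fibroblast score as a covariate it was -1.37 (limma unadjusted p = 0.00209, adjusted p = 0.731), in the fit where 3240 of 47722 probe sets had an unadjusted p under 0.05. GNAS, the stimulatory G protein subunit that couples the receptor to adenylyl cyclase, differed by -0.11, or -0.05 without HR2835, and the cyclase ADCY5 by -0.31, or -0.09 without HR2835. The levels of CREM and ADCY5 lay within the range of the background controls, as did those of MC4R and MRAP2 below.

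Of 7 melanocortin receptors and accessory proteins 5 were measured and 0 were called. Their median difference was 0.0049, or 0.03 without HR2835, beside 0.00 and 0.01 over all probe sets. MC4R, the receptor known from appetite control in the brain, had a low level of 2.46 ± 0.18 in HR and 2.32 ± 0.22 in LR, and MRAP2, the relative of MRAP, had 7.21 ± 0.75 and 7.33 ± 0.76 (SD, n = 10 each). Their differences were 0.14 and -0.12, or 0.18 and -0.11 without HR2835. Of 30 partners and regulators of steroidogenic transcription 28 were measured, 0 were called and 1, the homeodomain protein PKNOX1, had an unadjusted p under 0.05. PKNOX1 differed by -0.21 (SE 0.10, limma unadjusted p = 0.0478, adjusted p = 1), or -0.24 without HR2835 (limma unadjusted p = 0.0249). CTNNB1, the beta-catenin of Wnt signalling, differed by -0.21 (limma unadjusted p = 0.111), or -0.19 without HR2835. The share of 1 in 28 stands beside 3.65% over all probe sets. Without HR2835 it was 2 in 28, PKNOX1 and NR0B1, beside 7.89%. The list's median was -0.03, or -0.02 without HR2835, beside 0.00 and 0.01 over all probe sets. Over probe sets above the median level it was -0.013 with all animals.

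Of 15 known targets of NR5A1 in steroid synthesis 11 were measured and 0 were called. Their median difference was -0.04, beside 0.00 over all probe sets and -0.013 over those above the median level. In HR 3 of 11 were higher, and the share over all probe sets was not determined. Without HR2835 the median was -7e-06, beside 0.01 over all probe sets, and 5 of 11 were higher in HR. Apart from NR0B1, itself such a target, those shown are POR, the electron donor of CYP17A1 (-0.15, or -0.08 without HR2835), the ferredoxin FDX1 (-0.05 in both fits), the 21-hydroxylase CYP21A2 (-0.09, or -0.04 without HR2835) and CYP17A1. FDX1 had 12.88 ± 0.03 in HR and 12.93 ± 0.08 in LR, and CYP21A2 13.50 ± 0.26 and 13.59 ± 0.20 (SD, n = 10 each).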

How the data were processed

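Total RNA of 20 adrenal glands was hybridized to Porcine Snowball arrays. The authors scanned the arrays under GCOS 1.1.1, applied RMA (Expression Console) and deposited log2 values per probe set. They were used as deposited. Of 47845 probe sets, 123 controls were left out. Probe sets were named through the array's annotation, with 26014 transcript probe sets carrying 1 symbol and 19850 none. Columns of samples not used numbered 0, and 0 pairs of arrays were identical. The number of arrays limits the precision. HR and LR were compared with limma 3.58.1 in R 4.3.3 (lmFit, eBayes, no covariate, Benjamini-Hochberg over 47722 probe sets, threshold 0.05, two-sided). Relations were tested two-sided with 100000 resamples in Python 3.11.15 with numpy 2.4.6 and scipy 1.17.1, or by exact enumeration for a group of 9. Differences of r were tested by permuting group labels. Both scripts were tested on simulated data. As MC2R was not measured, 10 relations to the targets and 10 among the genes replaced the 12 and 15 planned. Alternatives were other normalizations, filters, variance models, weights, probe sets, covariates and left-out animals. A marker score is the mean over a list of values standardized over the animals. Genes named are the members, CYP17A1, STAR, per list the 3 genes of smallest unadjusted p and the 2 brightest, and the 5 most and 2 least alike. The members and the lists were chosen with earlier results of these data known. Promoter motifs were not searched.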

Additional observations from a re-analysis of the deposited data

Results flagged for a closer look

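Of 34 groups of 10 animals examined, over all probe sets of the 5 genes, CYP17A1 and STAR, 4 held an animal whose gap to its nearest neighbour was a larger share of the group's range than Dixon's 95% critical value for 10 samples. Chance alone is expected to do so in about 1 in 20 groups. The 34 groups are not independent, as they hold several probe sets of the same gene in the same animals. The count of 4 can therefore not be read as an excess over that share. In HR, HR2835 was the lowest for both probe sets of NR5A1, with gap shares of 0.532 for the brighter (10.88, next lowest 11.31) and 0.592 for the other (9.35, next lowest 10.10). HR2835 was also the lowest HR animal for the second brightest probe set of STAR (gap share 0.482, 12.64 against 12.90), although it ranked 11 from the lowest of 20 for the brightest probe set of STAR and highest of all for the fourth. HR2965 was the highest HR animal for GATA4 (gap share 0.519, 4.90). The cause of these values was not tested.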

How the results depend on the processing

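The count of the 5 genes called between HR and LR was 0 under every alternative run for it. The count of differences of r between HR and LR was 0 without HR2835, by rho and with the next brightest probe set of STAR, the alternatives run for it. No paired analysis was possible because the animal numbers are not shared between HR and LR. A filter on probe sets above the median level left GATA4 without a value. The other probe sets of STAR, NR5A1 and GATA4 were chosen as alternatives after seeing the data.

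The number of called relations to CYP17A1 and STAR, 2 of 10, ranged from 0 to 3 when each animal was left out. It was 2 without HR2915, HR2978, LR2594, LR2611 or LR2639, 3 without LR2562, 1 without HR2593, HR2797, LR2016 or LR2579, and 0 without any of the other 10. Without HR2915 the 2 were NR5A1 and GATA6 with CYP17A1 (GATA6 r = 0.724, permutation adjusted p = 0.0412), and NR0B1 with STAR did not pass (permutation adjusted p = 0.0538). Without LR2562 MRAP with CYP17A1 was added (r = 0.711, permutation adjusted p = 0.0454). It was 0 by Spearman's rho and 1 with arrays centred on their median, with the mean of all probe sets, after the capsule score, with the second probe set of NR5A1 and with all other probe sets of STAR apart from the fourth. The number among the genes, 1 of 10, ranged from 0 to 2. It was 2 without LR2016, where NR0B1 and GATA6 passed (r = 0.681, permutation adjusted p = 0.0206), and 0 without HR2835, HR2857, HR2897, HR2900, HR2965, HR2978, LR2635, LR2789, LR2790 or LR2793. It was 2 after quantile normalization and 0 with the mean of all probe sets or the second probe set of NR5A1. Over the left-out animals r ranged from 0.496 to 0.815 for NR5A1 and CYP17A1, from -0.678 to -0.575 for NR0B1 and STAR, and from 0.492 to 0.859 for NR5A1 and GATA6. With the fourth probe set of STAR, MRAP and STAR had r = -0.665 (permutation adjusted p = 0.0279). NR0B1 and GATA6 passed after quantile normalization (0.637, permutation adjusted p = 0.0342).

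Directions turned only for values not called. With array weights NR5A1 differed by 0.0201 between HR and LR. With the capsule score as a covariate MRAP differed by 0.0746, NR5A1 by 0.0653, CYP17A1 by 0.00522 and ADCY5 by 0.102 (in the same fit NR0B1 moved to 0.356, GATA6 to 0.148, STAR to -0.0667, CREM to -1.37 and MRAP2 to -0.209), and with another probe set GATA4 by -0.0485. Without one animal the differences ran from -0.121 to 0.0289 for MRAP, from -0.0609 to 0.0295 for NR5A1, from -0.0519 to 0.0997 for GATA6, from -0.0373 to 0.00113 for CYP17A1 and from -0.268 to 0.0621 for MRAP2. Those of MRAP, NR5A1 and CYP17A1 turned only without HR2835, and that of MRAP2 only without HR2900. GATA4 and CYP17A1 had -0.0451 by rho, -0.0235 without subtracting group means, -0.0337 with the mean of all probe sets, -0.0315 after the capsule score, -0.163 with another probe set of GATA4, and -0.0943 to 0.11 over the left-out animals. GATA4 and GATA6 had -0.0143 after the capsule score and -0.0466 to 0.19 over the left-out animals, and MRAP and NR5A1 had -0.0775 to 0.549. That probe set of GATA4 gave -0.0348 with MRAP, -0.213 with NR5A1, -0.217 with NR0B1 and -0.397 with GATA6. With the second probe set of STAR, r was 0.0971 for MRAP, 0.256 for NR5A1 and 0.278 for GATA6, with the sixth 0.0571 for MRAP, and with the seventh 0.0577 for NR5A1. The cause was not tested.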
